A study of Mus musculus with 13 samples.

Results

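The ERBB receptors and their ligands were followed in mammary tumors of mice that carry a transgene for TSG101, an ESCRT component. The group was taken by gene symbol and holds 10 genes, the receptors Egfr, Erbb2, Erbb3 and Erbb4 and the ligands Areg, Ereg, Tgfa, Hbegf, Btc and Nrg1. Of these, 9 were among the 15213 genes analysed, and Erbb4 was not analysed here. RNA sequencing covered 10 mammary tumors of 6 females with the genotype MtTA Teto-TSG101wt and mammary glands of 3 wildtype FVB females. In this model the mouse mammary tumor virus promoter drives the transactivator tTA, which switches on a TetO transgene with the full-length mouse Tsg101 coding sequence in the absence of doxycycline. A single tumor came from each of 3 mice (tumors 1, 4 and 7), whereas tumors 2 and 3, tumors 5 and 6, and tumors 8, 9 and 10 shared a mouse. The 3 glands came from separate mice. Age and parity of the sequenced animals are not given in the sources used here.

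ERBB receptors are transmembrane tyrosine kinases that signal as pairs. EGFR and ERBB4 bind ligand and carry an active kinase, ERBB2 has no known soluble ligand of its own, and ERBB3 binds neuregulins but has very weak kinase activity and relies on a partner, most often ERBB2. The ligands are made as membrane-bound precursors that proteases cut at the cell surface. Amphiregulin (Areg) acts downstream of estrogen in the growth of mammary ducts, whereas transforming growth factor alpha (Tgfa) is best known in the skin and in carcinomas. Receptors that have bound ligand are taken into endosomes and sorted for degradation by the ESCRT machinery to which TSG101 belongs.

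What makes these ligands a family is the EGF-like module, a short stretch with 6 cysteines that contacts the receptor. The coding sequences of the module, from its first to its last cysteine, are shown for Tgfa, Btc and Ereg, 3 of the 4 ligands that rose in the tumors (Hbegf, the other, is not shown), and for Areg and Nrg1, which were not called, so that the genes behind the values can be compared. Each was read from the GENCODE M21 transcript with the longest coding sequence, 5′ to 3′ on the sense strand, and capitals mark the cysteine codons. The module lies in 2 coding exons in each of these genes. On the GRCm38 (mm10) build it spans chr6:86263200-86269960 on the plus strand in Tgfa, chr5:91362421-91366197 on the minus strand in Btc, chr5:91088496-91089111 on the plus strand in Ereg, chr5:91143614-91144364 on the plus strand in Areg and chr8:31837698-31849398 on the minus strand in Nrg1, with the intron between the exons left out of the sequence.
Tgfa: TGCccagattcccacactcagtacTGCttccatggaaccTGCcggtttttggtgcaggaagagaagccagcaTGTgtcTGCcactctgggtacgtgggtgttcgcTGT
Btc: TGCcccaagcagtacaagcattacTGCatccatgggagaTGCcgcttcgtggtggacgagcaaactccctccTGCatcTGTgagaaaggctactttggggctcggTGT
Ereg: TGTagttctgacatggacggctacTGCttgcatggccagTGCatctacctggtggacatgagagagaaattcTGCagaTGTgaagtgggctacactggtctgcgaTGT
Areg: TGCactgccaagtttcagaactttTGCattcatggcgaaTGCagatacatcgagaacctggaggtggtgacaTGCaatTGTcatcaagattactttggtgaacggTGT
Nrg1: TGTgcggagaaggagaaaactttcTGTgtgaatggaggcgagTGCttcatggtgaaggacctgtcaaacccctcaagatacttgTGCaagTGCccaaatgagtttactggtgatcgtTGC
The modules of Tgfa, Btc, Ereg and Areg each took 108 bases with the cysteine codons in the same places, whereas that of Nrg1, a neuregulin that binds ERBB3 and ERBB4, took 120 bases. Placed side by side without gaps, Btc and Tgfa shared 62.0% of their 108 bases, the highest of the 6 pairs, and Ereg and Tgfa shared 45.4%, the lowest. Ereg, Areg and Btc are also neighbors on chromosome 5, together with the related ligand gene Epgn, within a stretch of 376 kb.

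Values are normalized cpm, the unit of the deposited table, in which a read count is divided by a scaled library size. The libraries held 6176269 to 16835397 reads in the tumors and 11672487 to 23889042 in the glands, and a count of 3 reads, the most that a count of 0 allows, came to 0.141 to 0.683 and 0.128 to 0.366 normalized cpm. Tumors and glands were compared with limma on log2(normalized cpm + 1) across all 15213 genes. A gene was called when its adjusted p (Benjamini-Hochberg) was below 0.05 and its change exceeded 2-fold. By this rule 20.6% of all genes were called, 10.5% higher and 10.1% lower in the tumors. The split depends on the scaling, with 1603 genes higher and 1538 lower as deposited, 2374 and 1077 when scaled to total reads, and 996 and 2945 when scaled to the epithelial markers. Tsg101 itself, the targeted gene, measured 45.6, 53.0 and 61.0 normalized cpm in glands 1, 2 and 3 and between 49.9 and 101 in the tumors, with a median of 63.4. It exceeded all glands in 6 of 10 tumors and was not called (log2 fold change 0.30, adjusted p = 0.279), so that overexpression was not borne out at the level of Tsg101 RNA in this table. Because the tissues were sequenced in bulk, fewer cells of a type and less RNA per cell cannot be told apart. Of the epithelial markers, 1 of 12 was called (higher), and their summed level was 2527 to 3743 normalized cpm in the tumors and 2576, 3670 and 1769 in glands 1, 2 and 3, so that gland 3 was lowest. All 5 milk genes were lower in the tumors, with summed levels of 282 to 32507 normalized cpm against 88507 to 121625 in the glands, although no source used here describes the glands as lactating. All 8 adipocyte markers were lower, at 23.4 to 234 against 1584 to 3546 normalized cpm, and none of these markers was at 0 in all tumors.

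Among the ERBB genes, 5 of the 9 were higher in the tumors, against 10.5% of all genes. None was lower, against 10.1% of all genes, and with 9 genes a count of 0 is little different from that share. The limma fit gave 0 lower members at an unadjusted p below 0.05 as well, and so did edgeR and DESeq2 on recovered reads. Those that rose were the receptor Erbb2 and the ligands Tgfa, Hbegf, Btc and Ereg. Egfr, Erbb3, Areg and Nrg1 were not called. The count of 5 fell to 3 without gland 1, to 3 without gland 3, to 3 without tumors 8, 9 and 10, and to 2, Tgfa and Hbegf, when libraries were scaled to the epithelial markers. Values of all 10 tumors lay above those of all 3 glands for Erbb2, Tgfa, Hbegf and Ereg, 4 of the 9 genes, against 11.4% of all genes. No gene of the group had all tumors below all glands, against 10.3% of all genes. The level plots by library and the intervals of the fold changes show both the spread within each group and the distance between them.

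**Figure D1:**
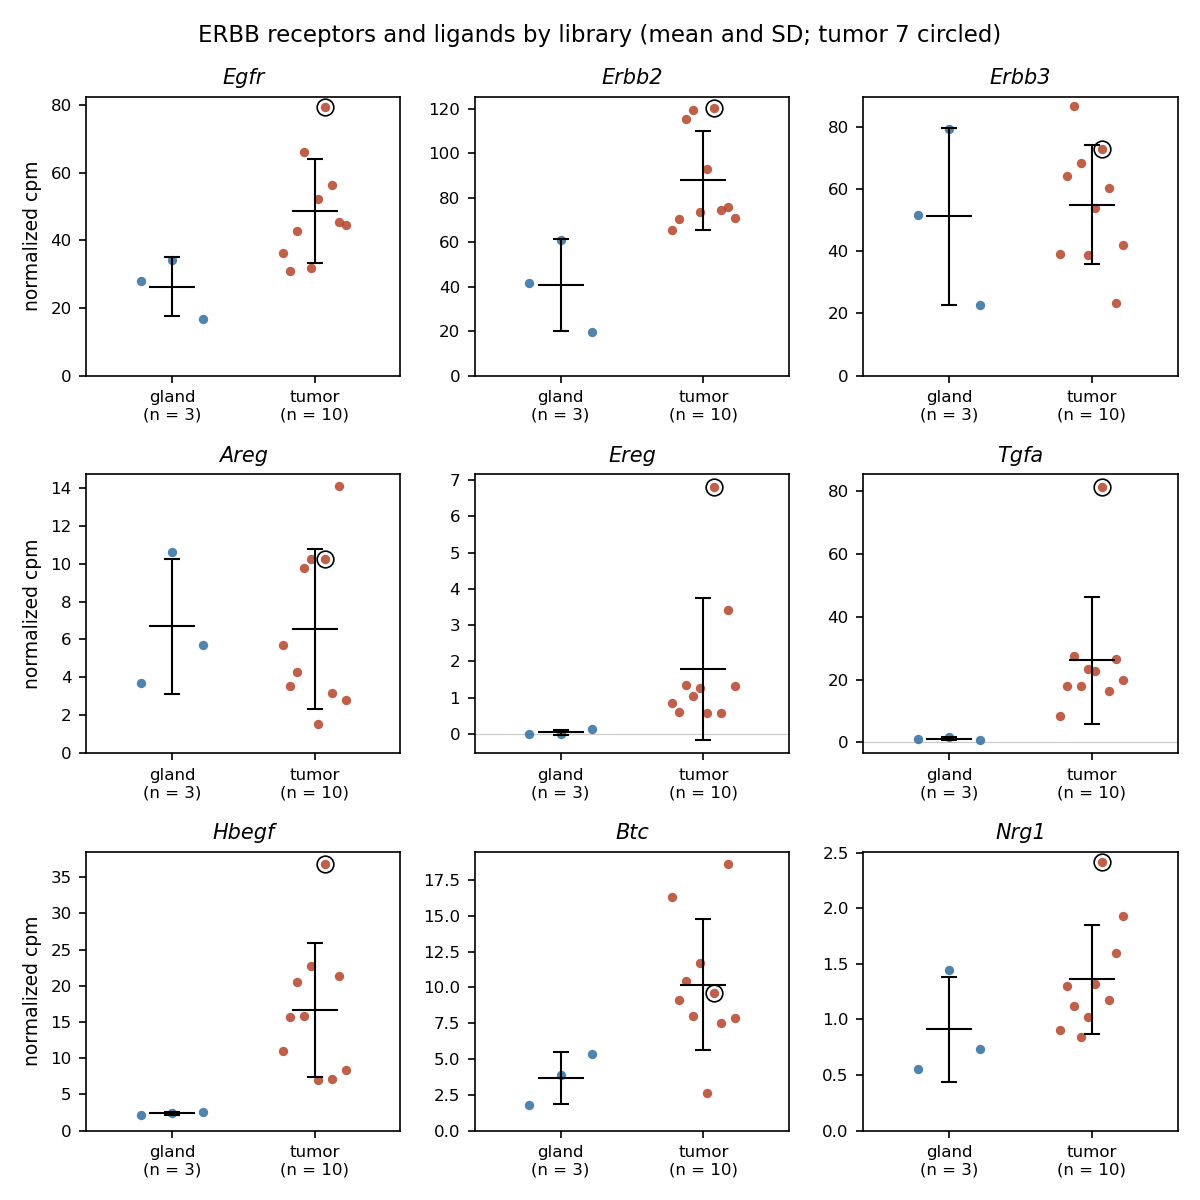
Normalized cpm of the 9 genes in each library, with the mean and SD of the 3 glands (blue) and the 10 tumors (red); tumor 7 is circled. Tgfa and Hbegf were separated by a wide gap between the groups, Erbb3 and Areg overlapped, and tumor 7 had the highest tumor value of Egfr, Erbb2, Ereg, Tgfa, Hbegf and Nrg1.

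**Figure D2:**
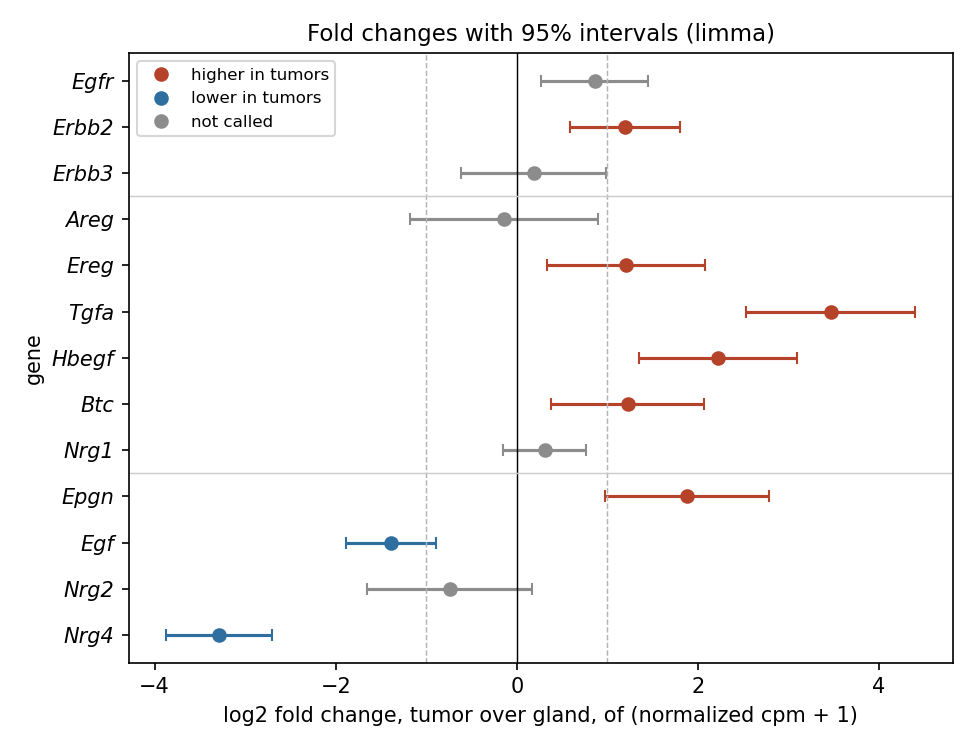
Log2 fold change of tumor over gland with its 95% interval from limma, for the receptors (top), the ligands (middle) and other EGF-family ligands (bottom); dashed lines mark a 2-fold change. The interval of Tgfa ran from 2.53 to 4.40, whereas those of Erbb3, Areg, Nrg1 and Nrg2 crossed 0.

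Erbb2 (Entrez 13866; chromosome 11, 98412470 to 98437716) encodes the receptor that partners with the others and is amplified in a subset of breast cancers. Its level was 41.5, 61.1 and 19.6 normalized cpm in glands 1, 2 and 3, and 65.6 to 121 in the tumors with a median of 75.2. The lowest tumor, tumor 1, still exceeded the highest gland, and tumors 3, 4 and 7 stood well above the others at 116, 119 and 121. The tumors averaged 88.0 ± 22.3 (SD, n = 10) and the glands 40.7 ± 20.7 (SD, n = 3), and the log2 fold change was 1.19 (limma, standard error 0.29, adjusted p = 0.00527). This call rested on gland 3, which was also lowest in epithelial markers. Without gland 3 the log2 fold change was 0.75 (adjusted p = 0.0379), and with every library scaled to its epithelial markers it was 0.73 (adjusted p = 0.0204), in both cases below 2-fold. A gene tail to tail with Erbb2, Mien1, overlaps its end, and whether counting used the strand is not given in the sources used here.

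Egfr (Entrez 13649; chromosome 11, 16752203 to 16918158), the receptor of most ligands in the group, was above all glands in 8 of 10 tumors but below the 2-fold limit. Glands 1, 2 and 3 held 27.9, 34.1 and 16.8 normalized cpm, and the tumors 31.0 to 79.4 with a median of 45.0. Tumors 2 and 5 lay within the range of the glands, and tumor 7 was highest. The log2 fold change was 0.86 (95% interval 0.27 to 1.45, limma adjusted p = 0.0277). It crossed 2-fold without gland 2, at 1.07, and its adjusted p was 0.142 without gland 3.

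Erbb3 (Entrez 13867; chromosome 10, 128567523 to 128589652), the neuregulin receptor and usual partner of ERBB2, showed no difference that could be told from the spread. It measured 51.8, 79.4 and 22.6 normalized cpm in glands 1, 2 and 3 and 23.4 to 86.7 in the tumors, with a median of 57.3. Only tumor 3 exceeded all glands, and tumor 9 was lowest. The log2 fold change of 0.19 had a 95% interval from -0.61 to 0.98 (limma adjusted p = 0.744). The interval ran from -1.11 to 0.50 without gland 3 and from -0.30 to 1.46 without gland 2, so that a 2-fold change in either direction was not excluded.

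The balance between Erbb2 and Erbb3 also differed between tumors and glands. Each receptor was expressed as a percent of the summed Egfr, Erbb2 and Erbb3 level per kilobase of exon within a library, a measure that no scaling between libraries can change. Erbb2 made up 41.8%, 42.0% and 41.9% of the receptor transcripts in glands 1, 2 and 3 and 48.7% to 64.9% in the tumors. Every tumor exceeded every gland, and the glands differed from each other by far less than the tumors did. The share averaged 56.0% ± 4.59 over the tumors (SD, n = 10) and 41.9% ± 0.073 over the glands (SD, n = 3; exact permutation test, two-sided, p = 0.00699, adjusted p = 0.0105 over 9 shares). The share of Erbb3 took the opposite course, with 45.2%, 47.3% and 41.6% in glands 1, 2 and 3 and 17.3% to 39.6% in the tumors. All tumors lay below all glands (mean 29.8% ± 5.95 against 44.7% ± 2.84, exact permutation p = 0.00699, adjusted p = 0.0105). The share of Egfr was 14.3% ± 2.87 in the tumors and 13.4% ± 2.89 in the glands, and the exact permutation test found no difference (adjusted p = 0.643). A p of 0.00699 is the smallest that 10 against 3 libraries allow.

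Per kilobase of exon, Erbb3 and Erbb2 were close to equal in the glands, with an Erbb3 to Erbb2 ratio of 1.08, 1.13 and 0.995 in glands 1, 2 and 3. In the tumors this ratio ranged from 0.267 in tumor 9 to 0.788 in tumor 2. Gland 3, whose receptor levels were the lowest of all, therefore had a receptor balance like that of the other glands. In the tumors the mean level was 16.9 ± 4.28 normalized cpm per kilobase for Erbb2, 9.15 ± 3.18 for Erbb3 and 4.29 ± 1.36 for Egfr (SD, n = 10). In the glands it was 7.82 ± 3.98 for Erbb2, 8.52 ± 4.73 for Erbb3 and 2.32 ± 0.772 for Egfr (SD, n = 3), where the order of Erbb2 and Erbb3 could not be told from their spread.

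**Figure D3:**
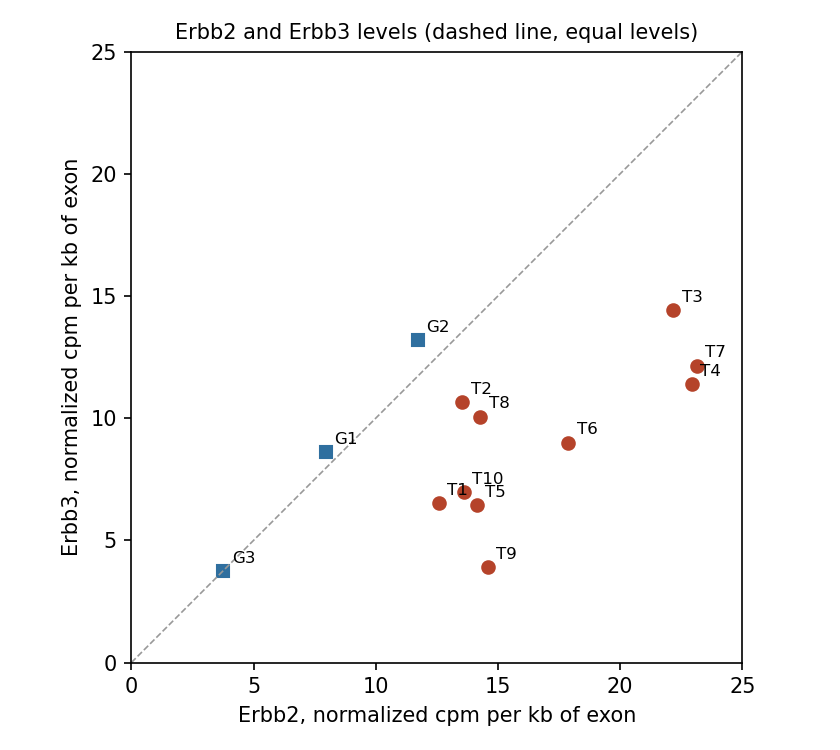
Erbb2 (x axis) against Erbb3 (y axis) in normalized cpm per kilobase of exon for each gland (squares, G) and tumor (circles, T); the dashed line marks equal levels. The 3 glands lay along the line, at ratios of 0.995 to 1.13, and all 10 tumors lay below it.

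Tgfa (Entrez 21802; chromosome 6, 86195223 to 86275719), a ligand of EGFR, had the largest change of the group on the log2(normalized cpm + 1) scale. On recovered reads the fitted log2 fold change of Ereg, which had at most 1 read in any gland, was larger than that of Tgfa (5.78 against 4.45 with edgeR, 6.27 against 4.51 with DESeq2). Tgfa was close to absent from the glands, with 1.16, 1.65 and 0.610 normalized cpm in glands 1, 2 and 3, backed by 5 to 32 reads. In the tumors it ranged from 8.22 in tumor 1 to 81.5 in tumor 7, with a median of 21.1. No tumor came near the glands, and the next highest after tumor 7 was tumor 3 at 27.4. The mean was 26.2 ± 20.2 (SD, n = 10) against 1.14 ± 0.521 (SD, n = 3), with a ratio of means of 23.0, and the log2 fold change was 3.47 (limma, standard error 0.44, adjusted p = 3.06e-05). The log2 fold change was 3.26 without tumor 7, and Tgfa was called in all 24 alternative analyses, in which it ranged from 2.96 to 4.51.

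Hbegf (Entrez 15200), which encodes heparin-binding EGF, a ligand of EGFR and ERBB4 that is induced in wounded epithelium, was also higher in the tumors. The glands were alike at 2.10, 2.43 and 2.56 normalized cpm, whereas the tumors ranged from 6.99 in tumor 6 to 36.8 in tumor 7 with a median of 15.8. Tumors 6, 8 and 10 formed the low end and still exceeded all glands. The mean was 16.6 ± 9.23 (SD, n = 10) against 2.36 ± 0.238 (SD, n = 3), which gave a log2 fold change of 2.22 (limma, standard error 0.41, adjusted p = 7.39e-04). Hbegf was called in all 24 alternative analyses.

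Btc (Entrez 12223; chromosome 5, 91357261 to 91402994) encodes betacellulin, which binds both EGFR and ERBB4. It measured 1.76, 3.87 and 5.36 normalized cpm in glands 1, 2 and 3 and 2.64 to 18.7 in the tumors, with a median of 9.37. Tumor 6 fell among the glands, the other 9 tumors lay above them, and tumors 1 and 9 were highest. The mean was 10.2 ± 4.56 (SD, n = 10) against 3.66 ± 1.81 (SD, n = 3), which gave a log2 fold change of 1.22 (limma, standard error 0.40, adjusted p = 0.0289). The call was lost without gland 1 (log2 fold change 0.89, adjusted p = 0.195), without gland 2 (1.30, adjusted p = 0.0653) and when tumors 8, 9 and 10, which shared a mouse, were left out together (1.16, adjusted p = 0.0635). It was also lost in limma with scaling to the epithelial markers (0.84, adjusted p = 0.184) and with the replicate block described below (1.52, adjusted p = 0.137).

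Ereg (Entrez 13874; chromosome 5, 91074622 to 91093646), encoding epiregulin, was scarcely detected in the glands. Glands 1 and 2 held 0 reads and gland 3 held 1 read, all within the limit of 3 reads that a count of 0 allows. In the tumors 5 to 65 reads gave 0.566 to 6.82 normalized cpm, with a median of 1.14. All tumors lay above the glands, and tumors 7 and 9 stood apart from the rest at 6.82 and 3.41. Because gland 3, the shallowest gland, held 1 read, the limit of 3 reads there (0.366 normalized cpm) is not an upper bound. The tumor mean of 1.78 ± 1.96 (SD, n = 10) was 4.86 times this limit, and the lowest tumor 1.55 times. On the log2(normalized cpm + 1) scale the change was 1.21 (limma adjusted p = 0.0357). This call was lost on leaving out any single gland, where the adjusted p was 0.0611 to 0.116, and with a pseudocount of 2 (adjusted p = 0.0741). It was also lost in limma without tumors 8, 9 and 10 (adjusted p = 0.0656), with scaling to the epithelial markers (0.0583) and with the replicate block (0.147).

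Areg (Entrez 11839; chromosome 5, 91139599 to 91148432) was the most abundant ligand per kilobase of exon in the glands. It measured 3.73, 10.6 and 5.73 normalized cpm in glands 1, 2 and 3 and 1.51 to 14.1 in the tumors, with a median of 4.99. The tumors spread on both sides of the glands, with 4 below all of them and 1, tumor 9, above. The log2 fold change was -0.15 (95% interval -1.18 to 0.89, limma adjusted p = 0.850), so that a 2-fold fall was within the interval, and its sign turned under some of the alternative analyses.

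Nrg1 (Entrez 211323; chromosome 8, 31814551 to 32884029), the neuregulin of the group, was low throughout. Glands 1, 2 and 3 held 0.557, 1.45 and 0.731 normalized cpm and the tumors 0.845 to 2.41 with a median of 1.24, from 7 to 23 reads. The groups overlapped in 7 of 10 tumors. The log2 fold change was 0.31 (95% interval -0.15 to 0.77, limma adjusted p = 0.302).

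As with the receptors, the make-up of the ligand transcripts differed between tumor and gland. Of the summed level per kilobase of exon of the 6 ligands, Areg made up 74.4%, 83.3% and 71.2% in glands 1, 2 and 3 and 17.7% to 49.6% in the tumors. All tumors lay below all glands, with tumor 6 lowest and tumor 4 highest (mean 32.6% ± 10.9, n = 10, against 76.3% ± 6.29, n = 3, exact permutation p = 0.00699, adjusted p = 0.0105). Tgfa rose from 4.32%, 2.42% and 1.42% in glands 1, 2 and 3 to between 10.5% and 49.6% in the tumors (mean 26.6% ± 11.8 against 2.72% ± 1.48, exact permutation adjusted p = 0.0105). Hbegf rose from 10.5%, 4.78% and 7.99% to between 17.4% and 28.9% (mean 21.8% ± 4.32 against 7.77% ± 2.88, exact permutation adjusted p = 0.0105). Ereg rose from at most 0.446% to between 1.27% and 5.06%, where the gland values stem from 0, 0 and 1 reads (exact permutation adjusted p = 0.0105). The shares of Btc (15.7% ± 6.62 against 11.8% ± 5.30, exact permutation adjusted p = 0.495) and Nrg1 (1.01% ± 0.544 against 1.23% ± 0.145, adjusted p = 0.590) were not told apart from the spread. Both depended on the division by exon length, without which the difference was -6.57 percentage points for Btc (adjusted p = 0.346) and -3.55 for Nrg1 (adjusted p = 0.0126) by the same exact test. Shares within a library sum to 100%, so that a lower share of Areg does not show a lower level of Areg.

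**Figure D4:**
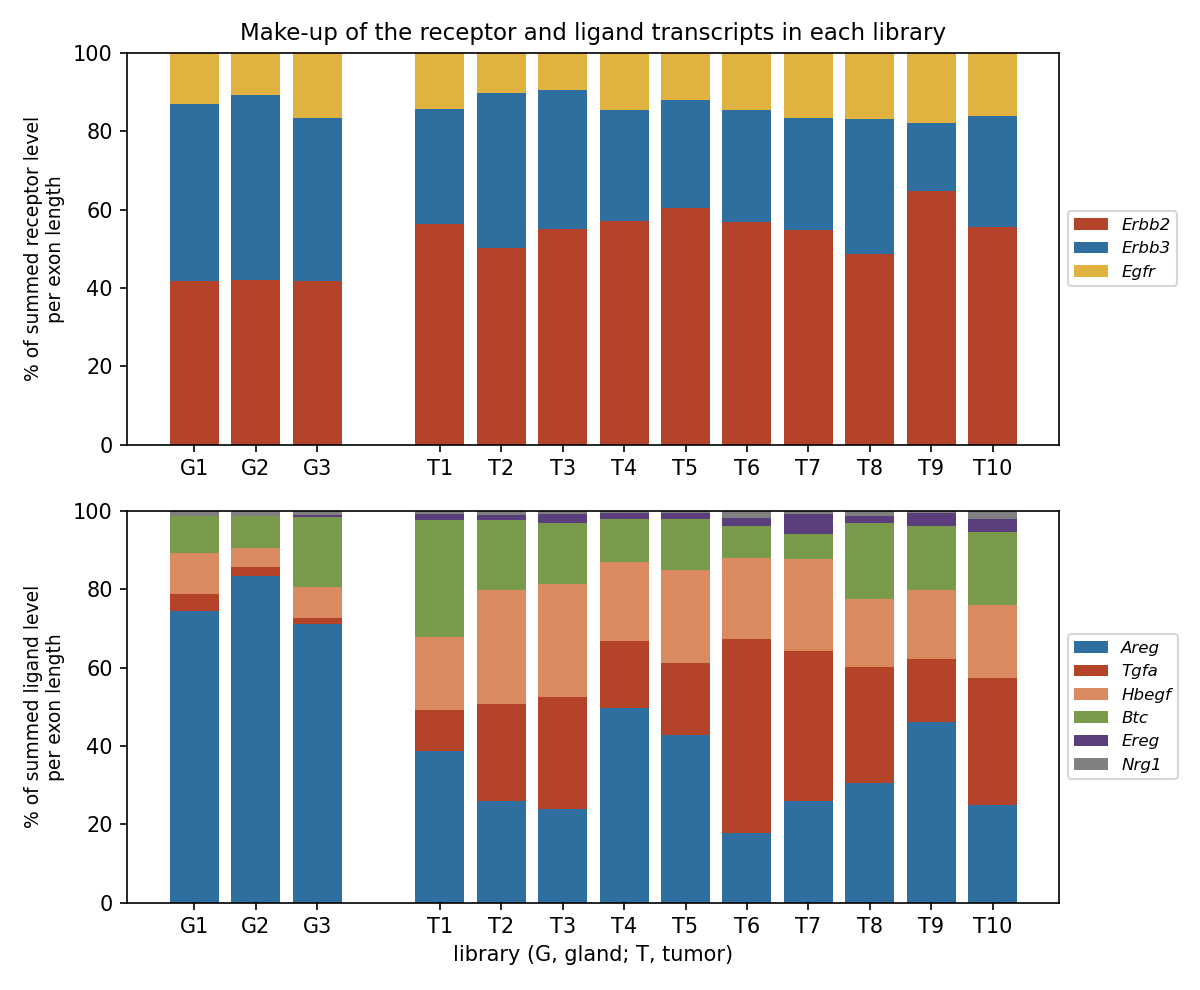
Percent of the summed level per exon length taken by each receptor (upper bars) and each ligand (lower bars) in glands 1 to 3 (G) and tumors 1 to 10 (T). Erbb2 took 41.8% to 42.0% in the glands and 48.7% to 64.9% in the tumors, and Areg took 71.2% to 83.3% in the glands and 17.7% to 49.6% in the tumors.

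Among the ligands of the group, Areg stood further apart from the next in the glands than in the tumors. Outside the group, the EGF-family ligand Nrg4 measured 3.19 ± 1.05 normalized cpm per kilobase in the glands (SD, n = 3), between Areg and Btc. Per kilobase of exon, Areg measured 5.39 ± 3.48 normalized cpm in the tumors, Tgfa 4.03 ± 3.11, Hbegf 3.44 ± 1.91 and Btc 2.26 ± 1.01 (SD, n = 10), and each differed from the next in this order by less than its own SD. Ereg followed at 0.431 ± 0.474 and Nrg1 at 0.132 ± 0.0474. In the glands Areg measured 5.51 ± 2.93, Btc 0.811 ± 0.401, Hbegf 0.489 ± 0.0492, Tgfa 0.176 ± 0.0804 and Nrg1 0.0880 ± 0.0455 (SD, n = 3), and Ereg was last, at 0 reads in glands 1 and 2 and 1 read in gland 3. The summed ligand level was 7.01 to 32.6 normalized cpm per kilobase in the tumors and 4.12 to 10.5 in the glands, and the summed receptor level 22.3 to 42.3 and 9.001 to 27.9, so that both sums overlapped between the groups.

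Tumors of a shared mouse differed in Tgfa by 1.04-fold to 1.61-fold. Between the means of the 6 mice Tgfa differed by up to 9.91-fold, but this value rested on tumor 7. Without tumor 7 the means differed by up to 2.80-fold, and those of the 3 mice with several tumors by up to 1.11-fold. For Areg the order was the other way round in 2 mice, in which the tumors differed by 6.79-fold (tumors 5 and 6) and by 5.01-fold (highest against lowest of tumors 8, 9 and 10), against 2.63-fold between the means of the mice. Erbb2 varied little on either level, by 1.07-fold to 1.64-fold within mice and 1.84-fold between them. With 6 mice, these values describe the tumors and were not tested.

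Markers of squamous epithelium were also higher in the tumors. Of 8 squamous markers, 7 were higher in the tumors and none was lower, with a summed level of 322 to 2982 normalized cpm in the tumors and 6.59 to 20.4 in the glands. Their sum was highest in tumor 7, which was also highest for Tgfa, Hbegf and Ereg, and Ivl and Dsg3, 2 of the 8 markers, were at 0 in all glands. Of the lymphocyte markers, 7 of 8 were lower, but their summed level was 525, 28.3 and 407 normalized cpm in glands 1, 2 and 3 and 11.5 to 96.7 in the tumors, so that gland 2 lay within the range of the tumors. Of the macrophage markers, 1 of 6 was higher, and their summed level was 277 to 552 normalized cpm in the tumors and 247 to 262 in the glands, so that every tumor lay above every gland. Basal epithelial markers were divided (4 of 8 higher, 4 lower), endothelial (4 of 5) and fibroblast (3 of 5) markers were lower, Schwann cell markers were mixed (1 of 5 higher, 2 lower), and none of 5 luminal hormone sensing and 4 skeletal muscle markers was called. The part of these cell types in the ligand values was not tested.

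Over the 10 tumors, the genes with the most similar log2 profiles were Fgfr2 (r = 0.95) and Cdh3 (r = 0.93) for Egfr, Lima1 (r = 0.96) and Actn1 (r = 0.96) for Erbb2, and Camsap1 (r = 0.97) and Slc5a9 (r = 0.96) for Erbb3. For the ligands they were Bok (r = 0.97) and Sox21 (r = 0.97) for Tgfa, Mitf (r = 0.95) and Ccl4 (r = 0.92) for Hbegf, Tm4sf1 (r = 0.98) and Milr1 (r = 0.97) for Btc, and Fzd6 (r = 0.90) and Alcam (r = 0.90) for Areg. These genes were picked as the highest of all correlations over tumors that partly share mice, and the values describe likeness only.

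Other EGF-family ligands were divided. Of the 4 analysed, 1 was higher and 2 were lower, against 10.5% and 10.1% of all genes. Their median log2 fold change was -1.07, against 0.01 over all genes. Epgn, encoding epigen, a ligand of EGFR and the neighbor of Ereg, held 2, 2 and 0 reads in glands 1, 2 and 3, and 1.36 to 10.6 normalized cpm in the tumors. All tumors lay above the limit of 3 reads. The tumor mean of 3.53 ± 2.95 (SD, n = 10) was 9.65 times that limit in gland 3, and the lowest tumor 3.72 times. Epgn was called higher (limma adjusted p = 0.00354). Egf, the founding member of the family, fell from 4.54, 6.97 and 3.78 normalized cpm in glands 1, 2 and 3 to 0.570 to 2.21 in the tumors (log2 fold change -1.39, limma adjusted p = 3.27e-04). Nrg4, a neuregulin secreted by fat and a ligand of ERBB4, fell from 18.3, 13.6 and 26.2 to 0.445 to 2.00 (log2 fold change -3.29, limma adjusted p = 5.90e-07). For both, all tumors lay below all glands. Adipocyte and milk genes fell in the same tumors, and their part in the values of Nrg4 and Egf was not tested. Nrg2 was not called, at 4.84, 2.37 and 0.975 in the glands and 0.112 to 4.09 in the tumors (log2 fold change -0.74, limma adjusted p = 0.208).

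Among 10 genes of ligand processing, the proteases and iRhoms that release the ligands, 1 was higher and 1 was lower. These are about the shares of all genes (10.5% higher and 10.1% lower), and the median log2 fold change was 0.25. Adam8, a metalloprotease found on leukocytes and some carcinomas, rose from 9.32 ± 3.55 (SD, n = 3) to 38.9 ± 15.5 normalized cpm (SD, n = 10; log2 fold change 1.90, limma adjusted p = 9.22e-04). Adam12 fell from 16.5 ± 5.73 to 3.51 ± 1.78 (log2 fold change -1.99, limma adjusted p = 5.50e-04). Adam17, the main sheddase of Tgfa and Areg, was not called, with 75.9 ± 1.91 in the glands and 88.8 ± 10.1 in the tumors (log2 fold change 0.22, limma adjusted p = 0.245).

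Downstream of the receptors, 3 of 33 adaptors and effectors were called, 2 higher and 1 lower, against 20.6% of all genes. Their median log2 fold change was -0.07. When libraries were scaled to the epithelial markers, 7 were called, all lower and without Grb7 and Pik3r1. By that scaling 2945 of all 15213 genes were called lower and 996 higher, so that the list did not stand out. Grb7, an adaptor that binds ERBB receptors, rose from 9.28 ± 4.57 (SD, n = 3) to 22.8 ± 8.64 normalized cpm (SD, n = 10; log2 fold change 1.23, limma adjusted p = 0.00760). Pik3r1, the main regulatory subunit of PI3 kinase, rose from 236 ± 99.8 to 498 ± 84.1 (log2 fold change 1.16, limma adjusted p = 0.00331), whereas Pik3r3, another regulatory subunit, fell from 38.3 ± 8.51 to 15.0 ± 3.59 (log2 fold change -1.31, limma adjusted p = 3.58e-04). As for Erbb2, gland 3 was the lowest gland for Grb7 and Pik3r1. Glands 1, 2 and 3 held 8.01, 14.4 and 5.49 normalized cpm of Grb7 and 279, 308 and 122 of Pik3r1. Grb7 is also a neighbor of Erbb2 on chromosome 11. Of the other genes in that stretch, Stard3 (log2 fold change 0.29, adjusted p = 0.154), Pgap3 (0.16, adjusted p = 0.556) and Mien1 (0.31, adjusted p = 0.594) were not called by limma. For Stard3, all 10 tumors still lay above all glands, at 28.5 to 45.4 against 26.7 to 27.5 normalized cpm. With libraries scaled to the epithelial markers, none of the 4 genes was called.

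Of the 13 negative regulators of the receptors described here, 2 were higher, not far from the 10.5% of all genes that were higher. The median log2 fold change was 0.21. Lrig3, a transmembrane protein related to the receptor inhibitor LRIG1, rose from 11.8 ± 6.71 (SD, n = 3) to 39.5 ± 14.4 normalized cpm (SD, n = 10; log2 fold change 1.74, limma adjusted p = 0.00224). Socs5, which promotes the breakdown of EGFR, rose from 27.5 ± 7.97 to 74.2 ± 14.1 (log2 fold change 1.42, limma adjusted p = 7.73e-05).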

How the data were processed

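The authors used Rsubread to map paired-end reads to mm10, featureCounts to count them by gene and edgeR to normalize the counts. The signal values deposited by the authors are read counts divided by a scaled library size, called normalized cpm here. Reads were recovered by dividing by the value of 1 read, which gave whole numbers (within 0.01 read) for 100% of the values of each library. As planned for normalized values, limma 3.58.1 (trend on mean expression) in R 4.3.3 was run on log2(normalized cpm + 1) over all 15213 genes and 13 libraries, with Benjamini-Hochberg adjustment at 0.05 and a change of more than 2-fold. The methods' filter (above 5 in most libraries) was an alternative, because it removes genes that are high in the glands alone. Recovered reads were also tested with edgeR 4.0.16 and DESeq2 1.42.0. Shares were compared by exact permutation over libraries (scipy), adjusted over 9 shares. Exon lengths are unions of GENCODE M21 exons. Tests take the 10 tumors of 6 mice as separate samples. The limma and edgeR steps were tested on simulated data.

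Members and lists were chosen with earlier results of these data known. Named were all members, the called genes of each pathway list (at most 3 in each direction), every gene of short lists, and for each member above a mean of 5 normalized cpm in the tumors the 2 genes most correlated with it. Adam17 was named after its values were seen. Marker lists were epithelial, basal epithelial, squamous, luminal hormone sensing, milk, adipocyte, lymphocyte, macrophage, endothelial, fibroblast, Schwann cell and skeletal muscle. All per-sample columns were used (0 left out). Intervals and floors cover counting error only where they rest on reads, and no 2 libraries were duplicates (chi-square per gene of 22.0 or more). The labels name a core facility and a company for sequencing without saying which made which library, whereas the authors' methods name only the core facility. No batch could therefore be assigned. A result for a gene of the negative regulator list is not reported here, and the list is described without it.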

Additional observations from a re-analysis of the deposited data

Results flagged for a closer look

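In tumor 7, 4 ligands stood far above the other tumors on the scale of normalized cpm. They were Tgfa at 81.5 normalized cpm (next highest tumor 27.4), Hbegf at 36.8 (22.7), Epgn at 10.6 (6.15) and Ereg at 6.82 (3.41). Among independent values with a normal distribution, such a gap is met in about 1 of 20 groups. Here 23 groups were examined, 14 by gene and 9 by share. The gaps were taken without a log2 transform and some tumors share a mouse, so this rate need not hold here. Tumor 7 held 8811952 reads, within the range of the tumors, and had the highest summed squamous markers, 2982 normalized cpm. The part of squamous cells in these values was not tested. Without tumor 7, Tgfa, Hbegf and Ereg were still called higher, with log2 fold changes of 3.26, 2.08 and 1.02.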

How the results depend on the processing

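Tgfa and Hbegf were called higher in all 24 alternatives. The number of members called, 5 in the main analysis, was 2 when libraries were scaled to epithelial genes, 2 with a replicate block and 3 without the mouse of tumors 8, 9 and 10, and it ranged from 3 to 5 when single libraries were left out. Among all genes, 3141 were called in the main analysis, 2029 with the filter on low values, 1111 with a replicate block and 2523 to 3644 when single libraries were left out. The numbers of the labels do not pair tumors with glands (correlations of deviations -0.41, 0.04 and -0.59), and the replicate block rests on the 3 numbers that both groups share. Scaling to total reads shifted the median of all genes by 0.30 (log2) and gave 2374 higher and 1077 lower genes, and scaling to epithelial genes shifted it by -0.44 and gave 996 and 2945, against 1603 and 1538. Of the uncalled members, Erbb3 and Areg changed sign. Erbb3 was at -0.28 with epithelial scaling and between -0.30 and 0.58 when single libraries were left out. Areg was at 0.13 with scaling to total reads, 0.056 with the tumors of a mouse summed, and between -0.45 and 0.20 when single libraries were left out.

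The shares of Erbb2, Erbb3, Areg, Tgfa, Hbegf and Ereg kept direction and significance without the division by length. Because the groups do not overlap, their significance on averaging the tumors of a mouse or leaving out a library was fixed by the design. Leaving out a library gave 13.1 to 14.9 percentage points for Erbb2 and -46.3 to -40.2 for Areg. Where shares were not divided by length, Btc was at -6.57 and Nrg1 at -3.55 (adjusted exact p = 0.0126). The Egfr share difference ranged from -0.47 to 2.39 on leaving out a library. With the filter, 0 other EGF-family ligands and 1 ligand processing gene were called, because it left out all 4 of the former and Adam12. With epithelial scaling, the calls were 7 adaptors and effectors and 0 genes next to Erbb2, against 3941 of all 15213 genes. The other causes were not tested. Depth limits Ereg, Epgn and Nrg1, which rest on few reads.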

Other observations

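Tumor 9 combined the extremes of several members. It had the highest share of Erbb2 among the receptors (64.9%), the lowest share of Erbb3 (17.3%), and the highest levels of Areg (14.1 normalized cpm) and Btc (18.7 normalized cpm) of all tumors. Rn45s, the precursor of ribosomal RNA, took 27.4% of its reads, against 0.456% to 9.32% in the other tumors, and with 6183457 reads it was among the shallowest. The part of the ribosomal reads in these values was not tested.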
